A study of Homo sapiens with 18 samples.

Results

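The response to WAPL loss was compared between 2 independent WAPL knockout clones of HAP1, clone 3.3 and clone 1.14, by asking of each gene whether it changed to a different extent, or in a different direction, in one clone than in the other. HAP1 is a near-haploid human cell line that was derived from the chronic myeloid leukemia line KBM-7, and the parental cells carry mutant p53. Polyadenylated RNA was sequenced in 18 samples, and 12 of them entered the comparison: 3 of the wild-type set WT A, 3 of WaplKO_3.3, 3 of the wild-type set WT B and 3 of WaplKO_1.14. The other 6 samples, 3 of SCC4KO and 3 of DKO_3.3, were used only to follow the clone-specific genes into further genotypes. WaplKO_3.3 and WaplKO_1.14 carry a disrupted WAPL gene, made by Cas9 cutting and insertion of a blasticidin resistance cassette. SCC4KO carries a puromycin cassette in SCC4 (also called MAU2) and has an intact WAPL. DKO_3.3 was made by knocking out SCC4 in WAPL knockout cells of clone 3.3, so it shares the history of that clone. The labels do not say which controls go with which clone. Here WaplKO_3.3, SCC4KO and DKO_3.3 were set against WT A (set A) and WaplKO_1.14 against WT B (set B), since the names of the deposited tables carry one lane tag for the first 4 groups and another for the last 2. Whether the sets were prepared separately is not stated. Each knockout genotype is a single clone and each WAPL clone has its own controls in this comparison, so a property of the clone, of its control set and of WAPL loss in that clone cannot be told apart. Nothing in the labels says that the 3 samples of a group are separate cultures, so the p-values measure the spread between these samples, which may be technical.

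Cohesin is a ring-shaped complex that holds DNA loops and sister chromatids. WAPL opens the ring and releases it from chromatin, while SCC4, together with NIPBL, loads it. Without WAPL cohesin stays longer on DNA and loops grow larger, without SCC4 less cohesin is loaded. A cell line grown from a single edited cell also carries whatever expression state and mutations that cell had, which is why independent clones are compared.

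The WAPL guide is shown because it is shared by both clones and places the lesion. On chromosome 10, the only chromosome searched, it matched a single site, chr10:88259863-88259882 of GRCh37, on the plus strand. That is coding exon 3 of 19 in the canonical transcript. WAPL itself is transcribed from the minus strand and spans chr10:88195013-88281549. The capitals mark the NGG motif that Cas9 needs beside the target.
WAPL guide and motif: gcgttccatagtatcctgtaTGG
WAPL reads numbered 1199, 1597 and 2033 in WT A, 1007, 572 and 607 in WaplKO_3.3, 1854, 1546 and 2330 in WT B, and 799, 640 and 720 in WaplKO_1.14. The gene was thus lower in both clones, by 1.18 on the log2 scale in WaplKO_3.3 (a fitted change of -1.18 ± 0.16, SE, adjusted p = 0.000137) and by 1.55 in WaplKO_1.14 (-1.55 ± 0.16, adjusted p = 1.02e-05), and the 2 changes did not differ past the threshold (adjusted p = 0.628, edgeR's quasi-likelihood test). Reads outside the cut do not show whether protein was made. Of the leukemia markers examined, PTPRC, CD34, CD33, SPI1, GATA1, MPO and ITGAM lay at or near 0 in the 12 samples (at most 0.178 CPM, reads scaled to a common library size as counts per 1000000), and KIT lay between 13.2 and 23.1 CPM. The hematopoietic markers other than KIT were thus nearly absent from all 12 libraries. Of 6 mesenchymal markers, VIM lay between 348 and 654 CPM, CDH2, FN1 and COL1A1 between 12.6 and 87.2 CPM, THY1 under 2 CPM and COL1A2 at or near 0 (at most 0.0672 CPM). Of 4 epithelial markers, KRT18 lay between 39.3 and 70.4 CPM, KRT8 between 2.23 and 11.1 CPM, EPCAM under 2 CPM and CDH1 at most at 0.205 CPM.

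The 12 libraries held between 14212412 and 20711127 reads on genes. The model gave each of the 4 groups its own mean, and the interaction was (WaplKO_3.3 minus WT A) minus (WaplKO_1.14 minus WT B) on the log2 scale. A positive interaction means that the gene changed upward more, or downward less, in clone 3.3 than in clone 1.14, called here a higher response in clone 3.3. A gene was called past the threshold at a Benjamini-Hochberg adjusted p under 0.05 over all 12786 genes tested.

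The response to WAPL loss differed between the 2 clones in 339 of 12786 genes (2.65%). Clone 3.3 had the higher response in 213 (1.67%) and the lower response in 126 (0.985%). In the same fit 1597 genes (12.5%) differed between WaplKO_3.3 and WT A, and 1602 (12.5%) between WaplKO_1.14 and WT B. The direct gap between the clones passed in 1509 genes (11.8%), and the gap between the wild-type sets in 304 (2.38%). The count of 339 moved to 218 without WaplKO_1.14 replicate 1, and to between 233 and 372 when any other library was left out.

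What made up the interaction varied among the 339 genes, which are described here with the same samples that chose them. In 110 genes the change passed in WaplKO_1.14 and not in WaplKO_3.3, of which 76 fell and 34 rose. In 107 it passed in WaplKO_3.3 and not in WaplKO_1.14, of which 53 rose and 54 fell. A further 65 changed in the same direction in both clones to different extents, and 55 changed in opposite directions: 38 rose in clone 3.3 and fell in clone 1.14, and 17 did the reverse. The wild-type sets themselves differed past the threshold in 103 of the 339, and in 95 the gap between the wild-type sets was larger than the gap between the clones. The interaction was at least 2-fold in 260 genes and at least 8-fold in 68.

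**Figure D1:**
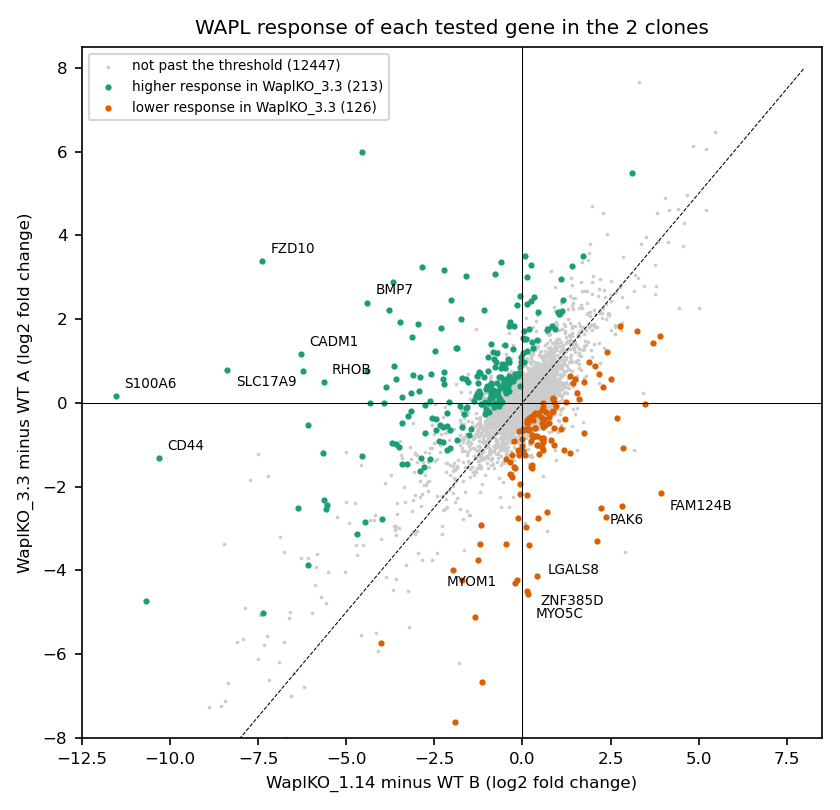
Each point is a gene. The x axis is the log2 fold change of WaplKO_1.14 against WT B and the y axis that of WaplKO_3.3 against WT A, the dashed line marks equal changes, and the 213 genes with a higher and the 126 with a lower response in clone 3.3 are coloured. S100A6, CD44 and SLC17A9 lie far to the left, with changes of 0.16, -1.32 and 0.79 in clone 3.3, of which those of CD44 and SLC17A9 passed. LGALS8, MYOM1 and MYO5C lie low, with changes of 0.41, -0.15 and 0.13 in clone 1.14, none of which passed.

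The clone-specific genes were weakly expressed on the whole. Their median level in the wild-type samples was 6.42 CPM, against 34.0 CPM over all genes tested, and 33.9% of them reached 10 CPM there, against 75.7% of all genes. Their median length was 38.5 kb, against 34.8 kb. The median size of the interaction was 1.48 on the log2 scale, against 0.165 over all genes, a gap that the choice of genes fixes.

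The genes with the largest higher response in clone 3.3 were in most cases genes that clone 1.14 had switched off. S100A6 (chr1:153507075-153508720), which encodes a small calcium-binding protein, stood at 22.3, 24.5 and 21.2 CPM in WT B and had no read in any of the 3 WaplKO_1.14 libraries. It stood at 30.9, 29.6 and 22.5 CPM in WT A and at 28.2, 28.9 and 35.8 CPM in WaplKO_3.3. The gene was thus at least 129-fold lower in WaplKO_1.14 than in WT B, taking 3 reads per library as the floor, with wild-type and clone 3.3 levels that overlapped. Its interaction had an adjusted p of 4.8e-08. For genes with no read in a group, the fitted log2 value depends on the small count that the fit adds and is no bound.

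CD44 (chr11:35160429-35253949), the receptor for hyaluronan on the cell surface, read 10.2, 9.35 and 9.46 CPM in WT B and 0 in all 3 WaplKO_1.14 libraries, at least 55.2-fold lower. It read 2.93, 2.96 and 4.11 CPM in WT A and 1.54, 1.20 and 1.20 CPM in WaplKO_3.3. CD44 thus fell in both clones, from wild-type sets that themselves differed (adjusted p = 0.000647), and the interaction passed (adjusted p = 5.7e-06). SLC17A9, a vesicular nucleotide transporter, had 1, 1 and 0 reads in WaplKO_1.14 against 15.1, 14.4 and 15.9 CPM in WT B. In clone 3.3 it rose, from 17.2, 16.2 and 15.8 CPM to 26.0, 26.6 and 32.8 CPM, and its interaction had an adjusted p of 1.23e-09.

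Other surface and signalling genes moved in opposite directions. CADM1 (chr11:115039938-115375675), an adhesion molecule of the immunoglobulin family, read 33.2, 32.3 and 35.5 CPM in WT B and 0.318, 0.415 and 0.543 CPM in WaplKO_1.14. In set A it read 21.3, 24.2 and 25.6 CPM in WT A and 59.0, 53.1 and 47.0 CPM in WaplKO_3.3, so that it fell by 6.30 on the log2 scale in one clone and rose by 1.16 in the other. BMP7 (chr20:55743809-55841697), a secreted ligand of the bone morphogenetic protein pathway, read 12.2, 14.9 and 12.2 CPM in WT B and 0.530, 0.772 and 0.543 CPM in WaplKO_1.14. It read 15.9, 12.5 and 11.9 CPM in WT A and 67.8, 68.4 and 75.2 CPM in WaplKO_3.3. The wild-type sets of BMP7 overlapped while the clones lay on opposite sides of them, and the interaction was 6.79 ± 0.24 (SE, adjusted p = 1.23e-09). FZD10, a receptor for WNT ligands, read 0.912, 1.23 and 0.715 CPM in WT A and 9.52, 10.8 and 9.70 CPM in WaplKO_3.3. It read 1.30, 1.41 and 1.13 CPM in WT B and 0 in WaplKO_1.14, at least 7.3-fold lower. CGREF1, a secreted calcium-binding protein, showed the same split, rising by 2.22 in clone 3.3 and falling by 3.78 in clone 1.14 on the log2 scale (interaction 5.99 ± 0.33, adjusted p = 1.04e-07). So did CNTNAP2, a neuronal adhesion protein of the neurexin family, with a rise of 1.88 and a fall of 2.96 (interaction 4.84 ± 0.31, adjusted p = 6.02e-07), and TMEM35A, a membrane protein known for its part in the assembly of acetylcholine receptors, with a rise of 1.57 and a fall of 3.14 (interaction 4.71 ± 0.20, adjusted p = 5.65e-09). The wild-type sets of CGREF1 and CNTNAP2 did not overlap, with means of 1.03 and 5.10 CPM in WT A and 1.67 and 11.4 CPM in WT B.

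GABRA5, a subunit of the receptor for the neurotransmitter GABA, read 17.9, 14.7 and 15.4 CPM in WT B and 0.212, 0.178 and 0.302 CPM in WaplKO_1.14, and it fell far less in clone 3.3, from 17.8, 18.9 and 16.8 CPM to 13.1, 12.1 and 11.9 CPM. RHOB, a small GTPase, read 4.65, 3.77 and 4.17 CPM in WT B and 1, 3 and 0 reads in WaplKO_1.14, and its change in clone 3.3 did not pass (adjusted p = 0.225). It read 1.56, 1.91 and 1.25 CPM in WT A, under each WT B sample, and had a mean of 2.21 CPM in WaplKO_3.3. TKTL1, a gene related to transketolase, fell from 12.4, 14.3 and 11 CPM to no read in WaplKO_1.14, at least 72.0-fold lower, and from 4.62, 3.82 and 3.46 CPM to 0.0997, 0.141 and 0.199 CPM in WaplKO_3.3. TKTL1 was nearly silent in both clones, its wild-type sets differed, and the interaction was lost without WaplKO_3.3 replicate 3 (adjusted p = 0.0556 against 0.0133 with all libraries).

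The genes with the largest lower response in clone 3.3 were mostly genes that clone 3.3 had lost and clone 1.14 had kept. MYOM1 (chr18:3066805-3219966), a protein of the sarcomere's M-band, read 96.6, 97.5 and 99.8 CPM in WT A and 6.18, 4.46 and 4.92 CPM in WaplKO_3.3. In the other set it read 83.6, 85.0 and 86.8 CPM in WT B and 78.6, 77.4 and 75.1 CPM in WaplKO_1.14. MYOM1 thus fell by 4.23 on the log2 scale in clone 3.3 and did not pass in clone 1.14 (adjusted p = 0.394), with an interaction of -4.08 ± 0.15 (adjusted p = 1.78e-09). GTSF1 (chr12:54849734-54867386), a zinc finger protein of the germline's piRNA pathway, read 104, 100 and 81.9 CPM in WT A and 12, 11.8 and 12.6 CPM in WaplKO_3.3, while WT B and WaplKO_1.14 overlapped between 85.9 and 103 CPM. LGALS8 (chr1:236681300-236716281), a sugar-binding galectin, read 12.9, 16 and 19.4 CPM in WT A and 0.897, 1.20 and 0.665 CPM in WaplKO_3.3, against 18.3, 14.4 and 20.6 CPM in WT B and 24.1, 21.1 and 25.7 CPM in WaplKO_1.14. MYO5C (chr15:52484519-52588001), a myosin motor of the secretory pathway, read 7.88, 13.4 and 17.7 CPM in WT A and 0.349, 0.566 and 0.864 CPM in WaplKO_3.3. Its WT B and WaplKO_1.14 values overlapped, between 13.8 and 18.1 CPM.

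Of the remaining genes of this direction, ZNF385D (a zinc finger protein), ARHGAP36 (a regulator of protein kinase A), ZNF329 (a zinc finger protein) and SETBP1 (a nuclear protein that binds SET) also fell in clone 3.3, by 4.57, 4.31, 2.75 and 3.37 on the log2 scale. Of these 4 genes only ZNF329 passed in clone 1.14, where it rose by 0.45 (adjusted p = 0.0416). TCEAL9 fell in both clones, by 5.11 in clone 3.3 and by 1.34 in clone 1.14. PAK6, a protein kinase, moved in opposite directions: it read 2.54, 2.22 and 1.61 CPM in WT A and 0.349, 0.424 and 0.332 CPM in WaplKO_3.3, but 1.44, 2.15 and 1.52 CPM in WT B and 8.64, 8.55 and 6.70 CPM in WaplKO_1.14. FAM124B was a gain in clone 1.14, with 0.479, 0.605 and 0.450 CPM in WT B and 7.63, 7.84 and 8.33 CPM in WaplKO_1.14, while WT A and WaplKO_3.3 read at most 0.370 CPM. CAPN6, a calpain without protease activity, fell by 2.62 in clone 3.3 and rose by 0.70 in clone 1.14, from wild-type sets that differed by 1.87 on the log2 scale (adjusted p = 4.81e-06). All 24 leading genes past the threshold, 12 in each direction, kept their direction in every alternative that gave a value.

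**Figure D2:**
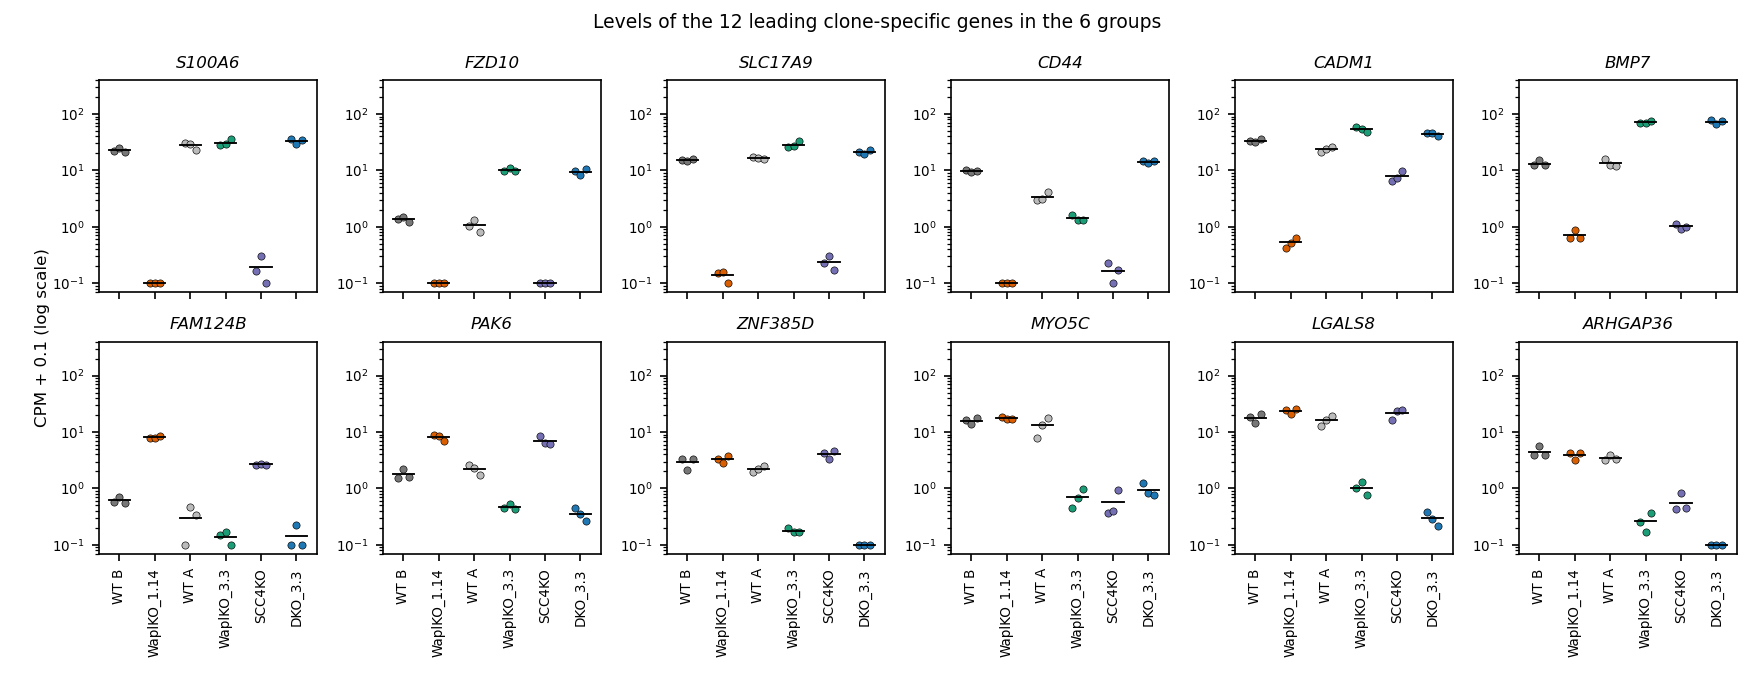
Points are single samples and lines are group means, in CPM plus 0.1 on a log axis, for the 6 leading genes of each direction in the 6 groups. The upper row (S100A6, FZD10, SLC17A9, CD44, CADM1, BMP7) is at its lowest in WaplKO_1.14, with FZD10 at 0 in SCC4KO as well. S100A6, SLC17A9, CD44 and BMP7 are also low in SCC4KO. The lower row (FAM124B, PAK6, ZNF385D, MYO5C, LGALS8, ARHGAP36) is low in WaplKO_3.3 and DKO_3.3. FAM124B is also low in both wild-type sets, and MYO5C and ARHGAP36 are also low in SCC4KO.

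Another 4 genes were followed because earlier results of these data had shown strong WAPL responses. NCAM2, a neural adhesion molecule, rose from 0.391, 0.802 and 0.596 CPM to 17.1, 14.8 and 12.1 CPM in clone 3.3 and from 0.752, 0.672 and 0.394 CPM to 22.3, 22.8 and 22.2 CPM in clone 1.14, and its interaction did not pass (-0.62 ± 0.39, adjusted p = 0.665). AMBN, an enamel matrix protein, fell by 5.01 in clone 3.3 and by 7.36 in clone 1.14. Its WT A and WT B levels differed, at 13.7 to 16.5 and 44 to 47.1 CPM, while both clones stayed under 0.6 CPM. The interaction of AMBN (2.35 ± 0.46, adjusted p = 0.0133) was lost without WaplKO_3.3 replicate 1, WaplKO_3.3 replicate 2 or WaplKO_1.14 replicate 1, with adjusted p up to 0.104. ACTL8, an actin-like gene expressed in testis, fell by 3.13 and 4.71 (interaction 1.58 ± 0.22, adjusted p = 0.00082), again from wild-type sets that differed (adjusted p = 0.000781). RELN, a secreted glycoprotein of neuronal migration, fell by 5.74 in clone 3.3 and by 4.02 in clone 1.14 from overlapping wild-type levels (interaction -1.72 ± 0.32, adjusted p = 0.00879). The call of RELN was lost in a single fit over all 18 samples (adjusted p = 0.0813).

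Some clone-specific genes were close to switched off in a single clone. With a mean under 1 CPM called silent and at least 4 CPM required in the other 3 of the 4 groups, a limit chosen after the values were seen, 9 genes were silent in WaplKO_1.14 alone: S100A6, SLC17A9, CADM1, BMP7, GABRA5, TMEM35A, SLC19A3 (a thiamine transporter), MGMT (the enzyme that removes alkyl groups from guanine in DNA) and MT1M (a metallothionein). Silent in WaplKO_3.3 alone were 5 genes: MYO5C, LGALS8, TCEAL9, SETBP1 and ADPRH (a hydrolase that removes ADP-ribose from proteins). All 14 were clone-specific, which their choice by levels in the same 4 groups nearly fixed. MGMT read 7.86, 8.13 and 7.09 CPM in WT B and 0.477, 0.950 and 0.422 CPM in WaplKO_1.14, but 12.2, 11.5 and 13.4 CPM in WaplKO_3.3 against 8.47, 6.41 and 5.36 CPM in WT A. MT1M belongs to a family of near-identical genes that share reads, so its level is uncertain.

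Upstream sequence is shown for a pair of genes that were lost in each clone, so that their CG content can be seen beside the levels. The runs give the 250 bases before the RefSeq start site, 5′ to 3′ on the gene's strand, in GRCh38.p14, with each CG pair in capitals. CG reads the same on both strands.
S100A6, chr1:153535992-153536241, minus strand: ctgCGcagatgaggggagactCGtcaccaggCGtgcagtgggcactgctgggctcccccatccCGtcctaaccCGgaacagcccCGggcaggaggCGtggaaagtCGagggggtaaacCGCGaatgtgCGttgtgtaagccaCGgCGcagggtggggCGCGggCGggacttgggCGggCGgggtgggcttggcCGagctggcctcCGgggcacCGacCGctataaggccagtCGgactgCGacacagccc
CD44, chr11:35138921-35139170, plus strand: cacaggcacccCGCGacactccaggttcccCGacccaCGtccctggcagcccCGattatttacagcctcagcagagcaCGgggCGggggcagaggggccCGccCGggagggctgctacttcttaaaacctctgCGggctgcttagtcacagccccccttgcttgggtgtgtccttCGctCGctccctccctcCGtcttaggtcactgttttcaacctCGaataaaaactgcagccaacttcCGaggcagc
LGALS8, chr1:236517964-236518213, plus strand: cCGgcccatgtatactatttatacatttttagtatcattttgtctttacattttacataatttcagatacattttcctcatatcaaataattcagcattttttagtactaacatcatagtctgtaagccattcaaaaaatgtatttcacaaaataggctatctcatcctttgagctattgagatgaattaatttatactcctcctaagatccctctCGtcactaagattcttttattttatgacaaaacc
MYO5C, chr15:52295805-52296054, minus strand: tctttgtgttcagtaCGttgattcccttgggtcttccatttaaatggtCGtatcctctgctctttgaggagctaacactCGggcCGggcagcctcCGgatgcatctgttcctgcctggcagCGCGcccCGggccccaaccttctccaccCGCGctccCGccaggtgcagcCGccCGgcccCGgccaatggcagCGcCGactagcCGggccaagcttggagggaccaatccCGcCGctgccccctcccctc
S100A6 and CD44, at 0 reads in WaplKO_1.14, held 24 and 15 CG pairs. LGALS8 and MYO5C, lost in WaplKO_3.3, held 2 and 19. Of 10284 tested genes with an entry, 86.9% held at least 10 CG pairs in this window. An entry was found for 261 of the 339 clone-specific genes, under 80%, so no share is given for them. The 4 genes shown thus ranged from 2 to 24 CG pairs, and methylation was not measured.

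In the other genotypes of set A, the genes that clone 1.14 had silenced were often silent in SCC4KO too, a clone with an intact WAPL. Of the 9 genes silent in WaplKO_1.14, 6 had a mean under 1 CPM in SCC4KO (BMP7, SLC17A9, SLC19A3, GABRA5, S100A6 and MT1M), against 14 of 10651 genes (0.131%) with at least 4 CPM in the same 3 groups, and 0 had one in DKO_3.3, against 7 of those 10651 (0.0657%). S100A6 read 0.0650, 0.204 and 0 CPM in SCC4KO and 36.0, 29.2 and 34.6 CPM in DKO_3.3. GABRA5 read 0, 0 and 0.0691 CPM in SCC4KO and 15.2, 16.8 and 15.4 CPM in DKO_3.3. BMP7 read 1.04, 0.815 and 0.898 CPM in SCC4KO and 77.9, 66.6 and 73.5 CPM in DKO_3.3, near its level in WaplKO_3.3. CD44 and FZD10, at 0 in WaplKO_1.14, were also at or near 0 in SCC4KO: CD44 read at most 0.130 CPM there and FZD10 read 0. In DKO_3.3, FZD10 read 8.17 to 10.3 CPM, near its WaplKO_3.3 level. CD44 read 13.4 to 14.4 CPM in DKO_3.3, far above its mean of 3.33 CPM in WT A and its 1.20 to 1.54 CPM in WaplKO_3.3. Whether the low levels in SCC4KO and in WaplKO_1.14 have the same cause was not tested. Not every gene that was low in WaplKO_1.14 was silent in SCC4KO. Of the 9 genes, CADM1 read 6.44, 7.33 and 9.47 CPM there, TMEM35A 2.28, 2.95 and 2.42 CPM, and MGMT 1.11, 0.916 and 1.38 CPM. RHOB read 4.81, 3.56 and 4.15 CPM in SCC4KO.

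The 5 genes silent in WaplKO_3.3 were all silent in DKO_3.3, against 16 of 10641 genes (0.15%) with at least 4 CPM in the other 3 groups. Of the 5, 2 (MYO5C and TCEAL9) were also silent in SCC4KO, against 11 of those genes (0.103%). LGALS8 read 16.2, 23.6 and 24.2 CPM in SCC4KO and 0.284, 0.184 and 0.113 CPM in DKO_3.3. ADPRH read 1.24, 1.32 and 0.622 CPM in SCC4KO and had no read in DKO_3.3. MYO5C read 0.260, 0.305 and 0.829 CPM in SCC4KO and 1.14, 0.738 and 0.679 CPM in DKO_3.3, well under its levels in WT A and in both groups of set B.

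**Figure D3:**
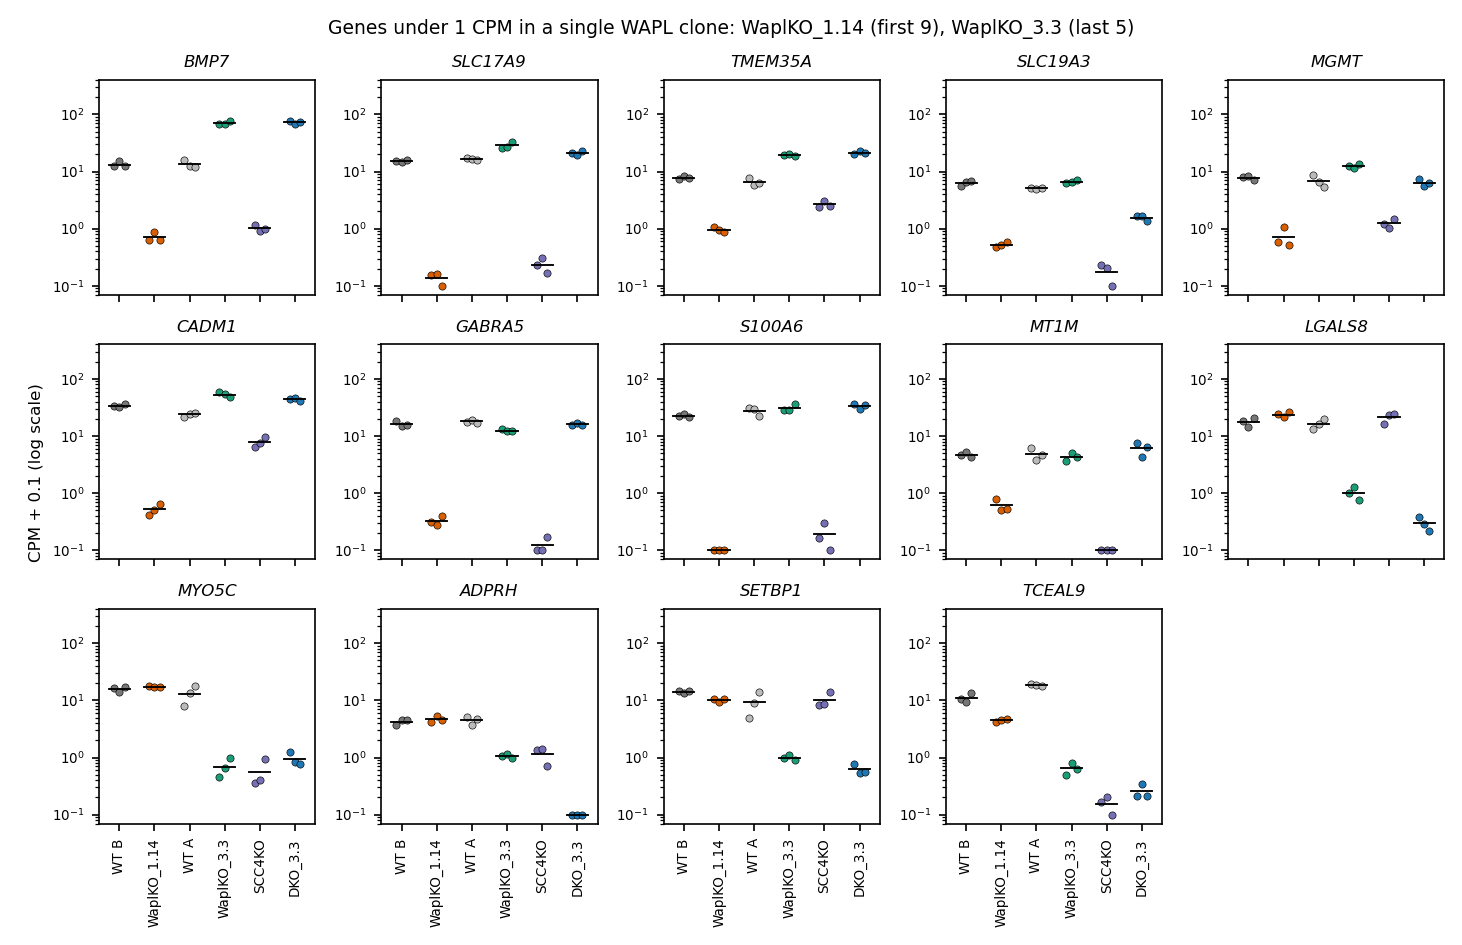
Points are single samples and lines are group means, in CPM plus 0.1 on a log axis, for the 14 genes under 1 CPM in a single WAPL clone, across the 6 groups. The first 9 genes are low in WaplKO_1.14 and mostly low in SCC4KO, and the last 5 are low in WaplKO_3.3 and in DKO_3.3.

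The difference between DKO_3.3 and SCC4KO set WAPL loss in the clone 3.3 lineage against a genotype with WAPL in 6 samples that had not entered the interaction. Over all 12604 genes tested there, 1732 (13.7%) were higher and 1715 (13.6%) lower in DKO_3.3. Of the 213 genes with a higher response in clone 3.3, 205 could be tested, and 121 (59.0%) were higher and 29 (14.1%) lower in DKO_3.3. Of the 126 with a lower response, 117 could be tested, and 83 (70.9%) were lower and 10 (8.55%) higher. A gene that passed the filter only through the group where it is high had to differ, so the counts were repeated over genes above 0.633 CPM in both groups: 97 of 174 (55.7%) were then higher and 67 of 98 (68.4%) lower, against 12.9% in each direction over all genes so restricted. Among the genes so restricted whose wild-type sets did not differ past the threshold, 59 of 107 (55.1%) with a higher response were higher and 52 of 74 (70.3%) with a lower response were lower.

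The counts by clone were taken over the same restricted genes, and alone means that the change passed in that clone and not in the other. Of 65 genes that fell in clone 1.14 alone, 35 (53.8%) were higher and 8 (12.3%) lower in DKO_3.3 than in SCC4KO, and of 28 that rose there alone 18 (64.3%) were lower and 3 (10.7%) higher. Of 42 genes that rose in clone 3.3 alone, 16 (38.1%) were higher and 6 (14.3%) lower, and of 42 that fell there alone 33 (78.6%) were lower and 1 (2.38%) higher. Whether SCC4KO or DKO_3.3 departed from WT A varied by gene. MYOM1 departed in both, reading 189, 199 and 198 CPM in SCC4KO and 1.42, 1.91 and 1.19 CPM in DKO_3.3, around a WT A level of 97.9 ± 1.64 CPM (SD, n = 3). GTSF1 read 136, 135 and 118 CPM in SCC4KO and 2.45, 1.84 and 1.87 CPM in DKO_3.3. RHOB went the other way from its interaction, being lower in DKO_3.3 (1.94, 1.97 and 1.87 CPM) than in SCC4KO (adjusted p = 0.000495), and so did CAPN6, at 5.69 to 6.45 CPM in DKO_3.3 and 1.04 to 1.12 CPM in SCC4KO. DKO_3.3 and SCC4KO each stem from 1 clone, so this difference too cannot be told apart from the clones' history.

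**Figure D4:**
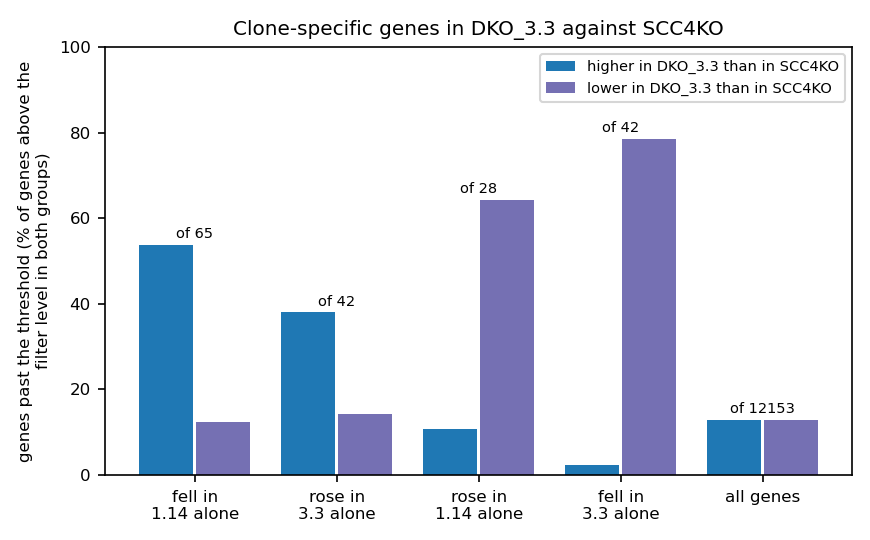
Bars give the percentage of genes that passed the threshold as higher (blue) or lower (purple) in DKO_3.3 than in SCC4KO, among genes above 0.633 CPM in both groups, by the clone in which the change passed, with the number of genes above. The first 2 sets lean to higher and the next 2 to lower, with 78.6% lower among genes that fell in clone 3.3 alone, beside 12.9% in each direction over the 12153 genes of the interaction so restricted.

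By function, the clone-specific genes were spread over many families, given here beside the 2.65% of all genes past the threshold. The lists were written with earlier results of these data known, and some hold AMBN, RELN or ACTL8, followed for their strong responses. That choice can raise a share, so the shares are descriptions and no family was tested. Counts are of tested members, with the median size of the interaction, which was 0.165 on the log2 scale over all genes. No member passed among the 27 HOX genes (median 0.185), the 26 genes of sterol synthesis and uptake (0.102), the 40 cell cycle genes (0.187) and the 21 genes of cohesin and its regulators (0.222). By edgeR's unadjusted p under 0.05, 2 HOX genes, 1 sterol gene, 2 cell cycle genes and 3 cohesin genes differed, beside 10.9% of all genes, and DESeq2 called 0 in each of the 4 groups.

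Of 16 hematopoietic genes 4 passed, all with a higher response in clone 3.3 (25.0%, median 0.463). TAL1 (chr1:47681962-47697897), a master transcription factor of blood formation, read 54.0, 56.8 and 52.3 CPM in WT B and 2.39, 2.91 and 2.84 CPM in WaplKO_1.14. It read 79.1, 71.5 and 68.2 CPM in WT A and 80.5, 69.3 and 68.1 CPM in WaplKO_3.3, a change that did not pass (adjusted p = 0.985), and the interaction was 4.32 ± 0.16 (adjusted p = 1.78e-09). SCC4KO again lay with clone 1.14, at 4.68, 4.68 and 3.80 CPM, and DKO_3.3 with clone 3.3, at 83.2, 80.4 and 84.0 CPM. HCLS1, a signalling protein of blood cells, read 4.79, 5.92 and 4.56 CPM in WT B and at most 0.121 CPM in WaplKO_1.14, and fell less in clone 3.3, from 4.88, 5.55 and 5.48 CPM to 0.847, 1.13 and 1.26 CPM. FLI1, an ETS transcription factor, read 1.5, 1.55 and 1.46 CPM in WT B and 0.212, 0.119 and 0.0604 CPM in WaplKO_1.14. Its means were 0.645 CPM in WT A and 0.691 CPM in WaplKO_3.3, and its wild-type sets did not overlap. LYL1, a relative of TAL1, read at most 1.45 CPM in the 12 libraries, and its interaction was lost without WT B replicate 1 (adjusted p = 0.0589 against 0.0106).

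Of 33 interferon-stimulated genes 4 passed, all with a higher response in clone 3.3 (12.1%, median 0.187). PSMB8 (chr6:32808494-32812456), a subunit of the immunoproteasome, rose in clone 3.3 from 14.5, 15.3 and 11.6 CPM to 29.8, 33 and 39.3 CPM and fell in clone 1.14 from 7.66, 10.2 and 6.75 CPM to 2.44, 2.08 and 2.29 CPM. OAS2, which makes a second messenger that activates RNase L, read 4.44, 5.58 and 4.78 CPM in WT B and 0.424, 0.594 and 0.181 CPM in WaplKO_1.14, with no change past the threshold in clone 3.3 (adjusted p = 0.102). Its means were 3.15 CPM in WT A and 4.64 CPM in WaplKO_3.3, and its wild-type sets did not overlap. IFITM1, a membrane protein that restricts virus entry and has close paralogs, fell in both clones, by 1.33 and 2.62. OAS1 lost the call without any 1 of 8 libraries, meaning that each of 8 of the 12 libraries ended the call when left out by itself, with adjusted p up to 0.112.

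Of 40 genes of TGF-beta, BMP and activin signalling 5 passed, all with a higher response in clone 3.3 (12.5%, median 0.272). Beside BMP7 they were BMP2, a related ligand, with 10.7, 11.4 and 10.3 CPM in WT B and 5.41, 5.34 and 5.19 CPM in WaplKO_1.14, LTBP1, which holds latent TGF-beta in the matrix, and INHBE and ID1, an activin subunit and a BMP target. LTBP1 read 5.26, 5.45 and 4.95 CPM in WT B and 1.75, 2.91 and 1.99 CPM in WaplKO_1.14, and its change in clone 3.3 did not pass (adjusted p = 0.407). In WT A, BMP2 read 6.77, 8.57 and 6.91 CPM and LTBP1 2.48, 3.39 and 3.04 CPM. The means in WaplKO_3.3 were 6.77 CPM for BMP2 and 3.62 CPM for LTBP1. The wild-type sets of both genes thus did not overlap, with WT B the higher. The calls of INHBE and ID1 were lost without any 1 of 6 and 5 libraries. Of 38 genes of WNT signalling 5 passed (13.2%, median 0.239): FZD10, the secreted inhibitor SFRP1 and the receptor ROR2 with a higher response in clone 3.3, and WNT3 and TCF7L2 with a lower one. SFRP1 read 18.9, 16.8 and 19.3 CPM in WT A, 39.7, 37.5 and 30.2 CPM in WaplKO_3.3 and between 29.9 and 33.9 CPM in both groups of set B, so that WT A alone stood apart. WNT3 and TCF7L2 lost the call without any 1 of 11 and 10 libraries.

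Of 38 genes of the extracellular matrix 7 passed (18.4%, median 0.570), 3 with a higher and 4 with a lower response. SPARC, a matrix protein that binds collagen, fell in both clones, from 63.2, 55.9 and 48.6 CPM to 8.27, 8.21 and 6.98 CPM in clone 3.3 and from 33.9, 35.0 and 33.8 CPM to 1.96, 1.60 and 1.03 CPM in clone 1.14. LAMC3, a laminin chain, also fell in both, by 1.27 and 4.55 on the log2 scale. Its wild-type sets did not overlap, at 4.75, 3.39 and 3.52 CPM in WT A and 8.41, 8.27 and 9.23 CPM in WT B. The laminin chain LAMA2 fell in clone 3.3, from 21.9, 28.5 and 34.5 CPM to 17.4, 17.5 and 14.5 CPM, and read 22.3, 22.7 and 24.3 CPM in WT B and 32.1, 29.7 and 31.0 CPM in WaplKO_1.14, where it did not pass (adjusted p = 0.0751). AMBN and RELN were the members described above, and LAMB2 and EFEMP1 lost the call without any 1 of 8 and 6 libraries. EFEMP1 had no read in WaplKO_3.3, at least 4.14-fold lower than in WT A. Of 20 adhesion molecules of the immunoglobulin family 2 passed (10.0%, median 0.224), CADM1 and CNTN1. CNTN1, a neuronal contactin, fell in clone 1.14 from 15.9, 12.5 and 19.5 CPM to 1.06, 1.78 and 1.45 CPM and in clone 3.3 from 15.3, 16.2 and 21.0 CPM to 8.82, 9.13 and 7.38 CPM. Of 13 cadherins and protocadherins outside the clusters 2 passed (15.4%, median 0.228), PCDH8 and PCDH19 with opposite signs, and both calls were lost without any 1 of 4 and 8 libraries.

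Of 29 genes of the actin cytoskeleton and muscle 4 passed (13.8%, median 0.269): MYOM1, ACTL8, ACTN2 and TNNT1, the last 2 with calls that were lost without any 1 of 5 and 9 libraries. Of 12 intermediate filament genes 3 passed (25.0%, median 0.260): NES, which passed in clone 3.3 and not in clone 1.14, falling from 253, 236 and 227 CPM to 176, 147 and 144 CPM, KRT8, which fell in both and has many processed copies that share reads, and INA, lost without any 1 of 9 libraries. Among 6 S100 genes (16.7%, median 0.624) S100A6 alone passed, and among 7 annexins (14.3%, median 0.144) ANXA1 alone. ANXA1, which binds phospholipids in a calcium-dependent way, rose in both clones and more in clone 3.3, from 32.6, 32.4 and 30.6 CPM to 332, 393 and 356 CPM, than in clone 1.14, from 37.5, 27.6 and 48.1 CPM to 130, 119 and 127 CPM. The interaction of ANXA1 was 1.77 ± 0.22 (adjusted p = 0.000286).

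Of 29 genes of the ATF4 and unfolded protein response 3 passed (10.3%, median 0.279), all with a higher response in clone 3.3. CHAC1, an enzyme that degrades glutathione, read 7.42, 6.17 and 5.24 CPM in WT A and 10.6, 8.91 and 9.90 CPM in WaplKO_3.3, but 13.6, 14.1 and 11.5 CPM in WT B and 5.57, 5.58 and 4.83 CPM in WaplKO_1.14. The wild-type sets of CHAC1 thus did not overlap. ASNS and PSAT1, enzymes of asparagine and serine synthesis, had interactions of 0.94 ± 0.14 (adjusted p = 0.0011) and 0.70 ± 0.12 (adjusted p = 0.0036). Their wild-type sets did not overlap either. ASNS had means of 152 CPM in WT A, 199 in WaplKO_3.3, 226 in WT B and 154 in WaplKO_1.14. PSAT1 had means of 272, 323, 315 and 230 CPM in the same order. Of 25 AP-1 and immediate early genes 3 passed (12%, median 0.279): ETV4 and CCN1 with a higher response and FOSL2, lost without any 1 of 9 libraries, with a lower one. In the IGF axis, IGFBP5, a secreted binding protein of insulin-like growth factors, was the only 1 of 15 (6.67%, median 0.251). It fell in both clones, from 431, 421 and 440 CPM to 30.6, 34.5 and 31.0 CPM in clone 3.3 and from 199.9, 194 and 193 CPM to 82.2, 80.8 and 82.4 CPM in clone 1.14, so that its wild-type sets differed as well. Single members passed among 52 axon guidance genes (NRP2, 1.92%, median 0.301) and 21 imprinted genes (MEST, 4.76%, median 0.157). Of 15 germline genes 2 passed (13.3%, median 0.694), ACTL8 and PRAME, the latter lost without any 1 of 9 libraries. Of 32 genes of glycolysis and the hypoxia response 2 passed (6.25%, median 0.162), DDIT4 with a higher and SLC2A3 with a lower response. The wild-type sets of ETV4, NRP2, MEST, PRAME and DDIT4 did not overlap, with WT B the higher.

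The clone-specific genes lay on all 23 chromosomes examined, chromosomes 1 to 22 and X. Their share of the tested genes ran from 1.15% on chromosome 8 (5 of 435) to 4.55% on chromosome X (21 of 462). The median change of all tested genes of a chromosome lay between -0.0687 and 0.118 on the log2 scale in WaplKO_3.3 and between -0.0704 and 0.152 in WaplKO_1.14, so that no whole chromosome stood apart in either clone. Of 336 placed genes, 14 (4.17%) had a clone-specific gene as the next tested gene, beside 2.65% over all genes tested. Within 500 kb of each other lay 67 of them in 31 runs, 26 runs of 2 genes and 5 of 3, of which 19 had a single sign and 12 had mixed signs. No such count was made over all genes tested or over other sets of genes. The runs therefore give places only, and whether the genes or their signs cluster was not tested.

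A few pairs from the runs with a single sign are described here. STAC (chr3:36421995-36589499), an adaptor of calcium channels, and TRANK1 (chr3:36868310-36986548) both fell in clone 1.14. STAC read 4.79, 6.39 and 4.95 CPM in WT B, 1.01, 1.07 and 1.15 CPM in WaplKO_1.14, 4.17, 4.75 and 4.23 CPM in WT A and 16.1, 14.9 and 14.5 CPM in WaplKO_3.3. TRANK1 read 2.39, 1.81 and 1.18 CPM in WT B and 0.265, 0.178 and 0.121 CPM in WaplKO_1.14, with no change past the threshold in clone 3.3 (adjusted p = 0.656). In SCC4KO both were low, at no more than 1.5 CPM for STAC and 0.346 CPM for TRANK1, and in DKO_3.3 both were high, at 16.6 to 19.4 and 4.79 to 5.52 CPM. The pair therefore showed the pattern of S100A6 and BMP7 across the genotypes.

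TFPI2 (chr7:93514708-93520065), an inhibitor of serine proteases, and GNG11 (chr7:93551047-93557922), a G protein subunit, rose in clone 3.3, and their changes in clone 1.14 did not pass. TFPI2 went from 2.48, 1.97 and 2.38 CPM to 12.2, 11.2 and 11.4 CPM in clone 3.3, and WT B and WaplKO_1.14 overlapped between 3.03 and 4.56 CPM. GNG11 went from 3.19, 3.21 and 2.98 CPM to 12.9, 15.6 and 13.7 CPM in clone 3.3. In set B it read 3.97, 4.57 and 3.6 CPM in WT B and 4.82, 5.70 and 6.04 CPM in WaplKO_1.14, without overlap (log2 change 0.45, adjusted p = 0.0564). The neighbours parted in DKO_3.3, where TFPI2 had no read in any of the 3 libraries and GNG11 read 11.5, 11.9 and 12.9 CPM. In SCC4KO both lay above WT A, with TFPI2 at 9.17, 9.47 and 8.02 CPM and GNG11 at 11.1, 12.3 and 9.26 CPM. AKR1C1 and AKR1C3, steroid-converting reductases on chromosome 10, both fell in clone 3.3, by 1.13 each, and rose in clone 1.14, by 0.58 and 1.19. They are close paralogs that can share reads, so the values of each are uncertain. The run that holds LGALS8 on chromosome 1 had mixed signs, with ACTN2 next to it responding higher in clone 3.3 while LGALS8 was lost.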

How the data were processed

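Polyadenylated RNA of 18 HAP1 samples was sequenced from stranded libraries. The authors deposited 1 table of raw read counts per sample (unit: counts per Ensembl gene, 20329 identifiers), and per the submitters' processing notes used hg19, TopHat2 2.0.9, HTSeq and DESeq2 1.10.1. Whether counting used strand is not given in the sources used here. Rows for reads on no gene, on several genes or in several places were left out of totals and tests, with 6.67% to 7.82% of the counted reads not on a gene or ambiguous. Libraries held 10007646 to 20711127 reads on genes, which limits genes of a few reads.

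The members and lists were chosen with earlier results of these data known. The 12 samples were fitted with edgeR 4.0.16 (R 4.3.3; TMM, filterByExpr by group, quasi-likelihood F-test, Benjamini-Hochberg, threshold 0.05), and SCC4KO and DKO_3.3 in a fit of their own. The fit was tested on simulated data. DESeq2 1.42.0, other filters and scalings, a replicate block and leaving out each library were alternatives. CPM used TMM factors over 18 samples. Named were the 12 genes with the largest interaction in each direction at an average log2 CPM of at least 1, WAPL, NCAM2, AMBN, RELN, ACTL8, members past the threshold of 22 gene lists, and runs within 500 kb. The genes called silent were named after their values were seen. Gene places come from GENCODE on GRCh37 (19637 identifiers, 96.6%), upstream sequences from RefSeq on GRCh38.p14.

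Same-numbered samples did not deviate together in every pair: the correlations of their deviations ran from -0.535 to 0.349, so the numbers were not taken as pairs. No 2 libraries of a group agreed within sampling noise, though those of WaplKO_1.14 lay closest (chi-square per degree of freedom of 1.61 to 4.24, against 5.08 to 52.0 in the other groups).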

Additional observations from a re-analysis of the deposited data

Results flagged for a closer look

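The responses of the 2 clones to WAPL loss were flagged because the test of their difference passed, in 339 genes. Groups held 3 samples each, so no single sample was tested as standing apart. Values here are interaction log2 fold changes, and those of S100A6, FZD10, CD44, TKTL1 and EFEMP1 rest on a group with no read and are no bound.

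Among the leading genes, the response was higher in clone 3.3 for S100A6 11.70, FZD10 10.77, SLC17A9 9.16, CD44 8.99, CADM1 7.46, BMP7 6.79, RHOB 6.13, CGREF1 5.99, TKTL1 5.97, GABRA5 5.55, CNTNAP2 4.84, TMEM35A 4.71. It was lower in clone 3.3 for FAM124B -6.09, PAK6 -4.73, ZNF385D -4.73, MYO5C -4.62, LGALS8 -4.54, ARHGAP36 -4.09, MYOM1 -4.08, TCEAL9 -3.77, CAPN6 -3.31, ZNF329 -3.20, GTSF1 -3.07, SETBP1 -2.89.

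Among the other genes named, with calls that held without any 1 library, the response was higher in clone 3.3 for MGMT 4.51, TAL1 4.32, SLC19A3 4.25, OAS2 4.16, STAC 4.11, FLI1 3.56, TRANK1 3.39, HCLS1 3.31, LAMC3 3.28, PSMB8 3.14, MT1M 2.96, MEST 2.71, TFPI2 2.49, CNTN1 2.44, NRP2 2.09, CHAC1 1.94, ANXA1 1.77, GNG11 1.72, SPARC 1.63, ACTL8 1.58, LTBP1 1.52, ETV4 1.43, IFITM1 1.28, DDIT4 1.17, ROR2 1.08, KRT8 1.01, SFRP1 1.01, ASNS 0.94, BMP2 0.89, CCN1 0.82, PSAT1 0.70. It was lower for IGFBP5 -2.49, ADPRH -2.34, AKR1C3 -2.32, RELN -1.72, AKR1C1 -1.71, LAMA2 -1.20, SLC2A3 -0.95, NES -0.74. Of the genes in this paragraph, BMP2, CCN1, KRT8, LAMA2, PSAT1, ROR2 and SLC2A3 lost the call under the replicate block.

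The calls of the following genes, and that of TKTL1 among the leading genes, were lost without at least 1 library. The response was higher in clone 3.3 for LYL1 5.38, PCDH8 3.05, INHBE 2.68, AMBN 2.35, OAS1 1.89, ACTN2 1.41, ID1 1.04, INA 0.80, PRAME 0.73, TNNT1 0.66, and lower for EFEMP1 -5.54, PCDH19 -1.35, FOSL2 -1.18, LAMB2 -0.77, WNT3 -0.70, TCF7L2 -0.59.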

How the results depend on the processing

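The count of 339 genes became 211 when at least 10 counts were required in every sample, of 11831 genes tested, which drops genes silent in a group, and all 211 were among the 339. A fit with the replicate number as a block within each set gave 173, with 172 shared, and 205 against 204 for the clone-specific genes that followed their direction between DKO_3.3 and SCC4KO. The numbers were not shown to pair the samples, and the cause of the lower count was not tested. DESeq2 gave 349 with 298 shared, DESeq2's size factors in edgeR 332, no filter 317, and a single fit of 18 samples 404 with 329 shared. The share of genes with a higher response in clone 3.3 stayed between 58.1% and 65.9% over the alternatives, against 62.8%. Leaving out 1 library gave between 218 (without WaplKO_1.14 replicate 1) and 372 (without WT A replicate 1). For DKO_3.3 against SCC4KO the count ran from 187 to 205 when 1 library was left out, and was 150 of 248 tested at 10 counts in every sample, 145 of 223 without genes whose control sets differed (an alternative chosen after seeing the data) and between 203 and 220 in the other fits.

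Of 79 named genes past the threshold, none changed direction in an alternative that gave a value, 62 kept the call without any 1 library, 17 lost it without at least 1, and 22 lost it under the block. The single fit of 18 samples ended 3 calls (RELN, ACTN2 and TCF7L2), no filter 3 (OAS1, TCF7L2 and TNNT1), DESeq2 1 (OAS1) and 10 counts in every sample 1 (TCF7L2). Genes silent in WaplKO_1.14 numbered 11 under 0.5 CPM and 13 under 0.25 CPM, limits chosen after seeing the data, of which 5 and 7 were silent in SCC4KO and 0 in DKO_3.3. In WaplKO_3.3 there were 2 at both limits, of which 1 and 0 were silent in SCC4KO and 2 in DKO_3.3.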
